A study of Saccharomyces cerevisiae with 13 samples.

Results

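The ribosome assembly factor genes examined here are 64 of the 5656 yeast genes that a single-gene probe set represented on the arrays. They were chosen by symbol: UTP, NOP, RRP, NOC, NSA, RIX, RLP, BMS or IMP followed by a number, leaving out the mitochondrial peptidase genes IMP1 and IMP2. Their products build ribosomes without staying in them. Total RNA from Saccharomyces cerevisiae cultures was read on 13 Affymetrix arrays of 1 colour. There were 5 arrays of spermidine-treated and 3 of spermine-treated cells, both labelled as a delta-spe3 delta-fms1 mutant, and 5 control arrays whose labels name a treatment (control) and no genotype. The series title describes the strain as a mutant deficient in polyamines, and asks which genes respond to each polyamine. SPE3 encodes spermidine synthase and FMS1 the oxidase that turns spermine into spermidine, so a strain without both can neither make spermidine nor convert added spermine to it. No source used here gives the doses, the treatment times or the strain background. Nothing in the labels ties the arrays of a group to separate cultures, and the p-values therefore reflect spread between arrays that may be technical.

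Ribosome assembly begins in the nucleolus while RNA polymerase I is still copying the ribosomal DNA. A large particle, the small subunit processome, forms on the new transcript around the U3 small nucleolar RNA, and cleavages within it release the precursor of the small subunit. The precursor of the large subunit then matures with its own set of factors, and the RNA exosome trims and degrades the leftover pieces from the 3′ end. In yeast these genes are known for moving together with growth rate and for falling in many kinds of stress.

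Signals of the deleted genes were low on every array. SPE3 lay between 0.57 and 13.8 and FMS1 between 1.1 and 8.1 over all 13 arrays, controls included. Array medians ran from 125 to 162. Background was set per array at the 95th percentile of 19 control probe sets for non-yeast RNA. Each of the 64 assembly factor genes lay above it on every array, and all 64 passed the filter on dim probe sets. Some arrays stood apart. The mean of a list of 30 general stress genes was 1.78 and 1.76 log2 units above its 13-array mean on controls 2 and 3 and 1.27 above on spermine 1, and between -1.10 and 0.16 on the other 10 arrays. Results for the 64 assembly factor genes that rest on these arrays are given with and without them.

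The assembly factor genes lay mostly lower in spermidine-treated than in control cells, by small amounts. Of the 64 genes, 53 had a log2 difference below 0 (82.8%, against 48.3% of all genes tested). The median was -0.31, whereas the median of all 5102 genes tested was 0.02. In limma with Benjamini-Hochberg adjustment at 0.05, 9 members fell, where 14.7% of all genes tested fell, and 1 member rose, where 17.9% of all genes rose. The 9 are 14.1% of the members, a share near that of all genes, and 1 is 1.56%. With array weights in limma 22 of 64 members fell, where 17.9% of all genes did, and 0 rose, where 20.6% did. At an unadjusted p under 0.05 there were 14 lower and 1 higher (23.4% of members, against 43% of all genes). Differences ran from -1.09 for BMS1 to 0.49 for RRP43. In RNA from whole cultures, fewer cells expressing a gene and less RNA per cell cannot be told apart. Should the control strain differ in genotype, that and the treatment cannot be told apart either. With controls 2 and 3 left out the counts were 13 lower and 0 higher, and the median was -0.42. In that setting 13.2% of all genes were lower and 15.7% higher. Leaving out spermidine 1, spermidine 4 or control 4 gave 5 members that fell, where 12.6%, 13.2% and 13.6% of all genes did. Leaving out spermidine 3 gave 14, where 13.7% of all genes fell. With any of spermidine 2 or 3 or control 2 or 3 left out, 0 members rose, where 16.2% to 16.9% of all genes did.

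**Figure D1:**
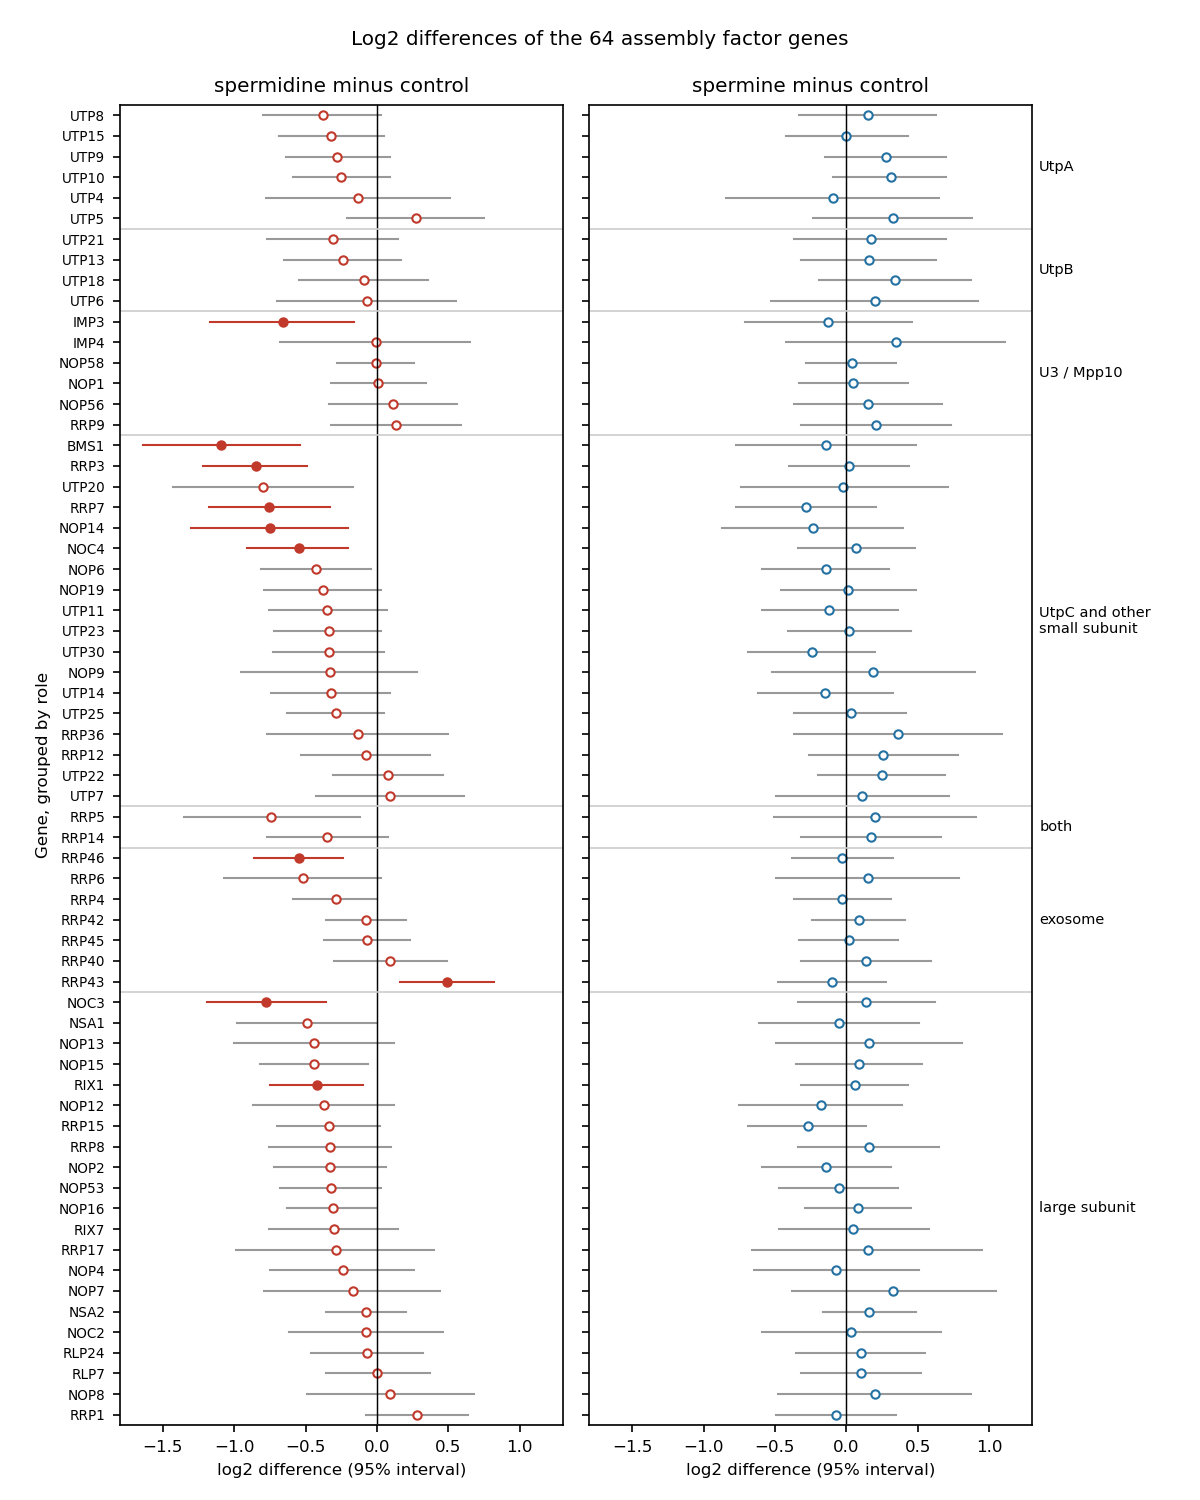
Log2 difference of each assembly factor gene (points) with its 95% interval (lines), for spermidine minus control (left) and spermine minus control (right), genes grouped by role down the page. Filled points passed an adjusted p of 0.05: 10 with spermidine, 9 of them below 0, and 0 with spermine.

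The largest fall was that of BMS1 (YPL217C), a GTPase of the small subunit processome. Its signal was 234, 379, 520.3, 215 and 233 on the spermidine arrays, against 575, 563, 533, 803 and 680.4 on the control arrays. The highest spermidine value, on spermidine 3, stood just under the lowest control value, and the other 4 were well below the controls. After quantile normalization the groups overlapped. The mean deposited signal was 316 ± 132 with spermidine and 631 ± 111 in controls (SD, n = 5 each). In normalised values the fall was 2.13-fold (log2 -1.09 ± 0.26, SE, limma adjusted p = 0.00467). RRP3 (YHR065C), a DEAD-box RNA helicase needed for 18S rRNA, had 506, 661, 737, 509.5 and 411 with spermidine and 1079, 841, 921, 1085 and 1014 in controls. The groups did not overlap, and the gene fell 1.81-fold (log2 -0.85 ± 0.17, limma adjusted p = 0.00147). RRP7 (YCL031C), a partner of UTP22 in the UtpC complex, had 331, 156, 293, 394 and 239 on spermidine arrays and 545, 402, 347, 449 and 587 on control arrays. Spermidine 4 lay within the range of the controls and spermidine 2 far below it (log2 -0.76 ± 0.20, limma adjusted p = 0.00943).

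Also among the small subunit factors, NOP14 and NOC4 encode proteins that bind each other in the processome. NOP14 (YDL148C) had signals of 255, 200.3, 437, 203 and 223 with spermidine and 438, 452, 307, 444 and 482 in controls, with 4 spermidine arrays below every control and spermidine 3 among the controls. The log2 difference was -0.75 ± 0.26 (limma adjusted p = 0.0369). NOC4 (YPR144C) read 261, 379, 338, 289 and 313 with spermidine against 494, 414, 367, 563 and 457 in controls, overlapping only where spermidine 2 exceeded control 3 (log2 -0.55 ± 0.17, limma adjusted p = 0.0201). Neither call held with every array left out in turn. The NOP14 value was no longer called at -0.74 to -0.63 with spermidine 1, 2, 4 or 5 or control 1, 2, 4 or 5 left out. That of NOC4 was no longer called at -0.48 to -0.47 with spermidine 1 or 4 or control 4 left out.

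UTP20, a very large protein of the same particle, missed the threshold (log2 -0.80 ± 0.30, limma adjusted p = 0.0508). In alternative settings it was called lower without quantile normalization, with cyclic loess, with the dimmest 50% left out, with array weights and with means of probe sets. It was also called lower with control 3, spermine 1 or 3, or spermidine 2 or 3 left out, and not in the other settings. Signals were 235, 394, 503, 186 and 208 with spermidine and 467, 466, 386, 598 and 522 in controls, so spermidine 2 and 3 lay among the controls and spermidine 1, 4 and 5 below all of them. Of the 18 genes of UtpC and other small subunit factors, 5 fell (27.8%, against 14.7% of all genes) and 0 rose (17.9% of all genes), with a median log2 of -0.34. RRP12, a HEAT-repeat protein needed for export of both subunits, had the brightest probe set of that group and read 1195, 1889, 2079, 1065 and 1362 with spermidine and 1501, 1356, 1718, 1850.3 and 1224 in controls. Those ranges overlapped (log2 -0.08 ± 0.21, limma adjusted p = 0.791). UTP7 and UTP22 were the 2 members of the group above 0, at 0.09 and 0.08, neither past the threshold.

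Members in the core complexes of the processome, few in number, gave no calls, where 14.7% of all genes tested fell and 17.9% rose. The UtpA complex, which is the first to bind the new transcript, had 0 of 6 members called, with a median log2 of -0.26. The UtpB complex, which joins next, had 0 of 4, with a median of -0.17. The median of all 64 members was -0.31. Genes of these complexes whose symbols do not match the rule are in the list of other factors below. Of these, NAN1 was called lower (log2 -0.68), and PWP2 (-0.12) and DIP2 (-0.21) were not called. UTP10 of UtpA had signals of 1368, 1902, 1627, 1033 and 1410.4 on spermidine arrays, against 1558, 1544, 1929, 1885 and 1523 on control arrays, in overlapping ranges (log2 -0.25 ± 0.16, limma adjusted p = 0.248). UTP18 of UtpB had 1067, 1422, 1296, 800.3 and 1080.0 with spermidine and 1509, 753, 938, 1442 and 1392 in controls, also overlapping (log2 -0.09 ± 0.21, limma adjusted p = 0.764). UTP5 differed from the other UtpA genes in sign, at 0.27, without passing the threshold.

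Proteins of the U3 particle and the Mpp10 complex gave 1 fall among 6 genes (16.7%, against 14.7% of all genes) and 0 rises, with a median log2 of 0.00. That gene was IMP3 (YHR148W), whose product helps U3 pair with the precursor RNA. Its signals were 375, 403, 428, 308 and 406 with spermidine and 713, 399, 418, 965 and 674 in controls. The spermidine values were close together, whereas controls 2 and 3 lay in their range and controls 1, 4 and 5 well above it (log2 -0.66 ± 0.24, limma adjusted p = 0.044). It was no longer called at -0.71 to -0.49 with spermidine 1, 2, 4 or 5 or spermine 1 or 3 or control 1, 4 or 5 left out. With controls 2 and 3 left out it was -1.02 and called. NOP58, a core protein of all box C/D particles, had 8878, 14891, 11399.5, 6381 and 8435 on spermidine arrays and 9719, 9971, 9158, 10393 and 9658 on control arrays. The spermidine arrays spread far more widely around nearly the same mean (log2 -0.01 ± 0.13, 95% interval -0.28 to 0.26). NOP1, the methyltransferase of these particles, and NOP56, the other core protein, stood at 0.01 and 0.11, and neither passed the threshold.

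Among the 7 exosome genes that match the symbol rule, 1 fell and 1 rose, each 14.3% of the group, where 14.7% of all genes fell and 17.9% rose. Exosome subunits with other symbols are in the list of other factors below. Of these, SKI6 (log2 -0.71) and DIS3 (-0.50) were called lower, and MTR3 (-0.39) and CSL4 (-0.02) were not called. RRP46 and RRP43 both encode ring subunits of the RNase PH type. RRP46 (YGR095C) had signals of 712, 763, 632, 545 and 493 with spermidine and 1083, 867, 809.8, 887 and 879 in controls. Every spermidine value was below every control value (log2 -0.55 ± 0.14, limma adjusted p = 0.00918). RRP43 (YCR035C) went the other way, with 375, 393, 401, 411 and 369 on spermidine arrays and 269, 227, 218, 348 and 337 on control arrays. Here every spermidine value was above every control, the 5 of them lying within a narrow range (SD 17.7), and the gene rose 1.4-fold (log2 0.49 ± 0.15, limma adjusted p = 0.0261). It was no longer called at 0.39 to 0.46 with spermidine 2 or 3 or control 2 or 3 left out. With both controls 2 and 3 left out it was 0.27 (adjusted p = 0.171), so the call rests on those arrays. RRP6, the nuclear exonuclease of the exosome, was at -0.52 ± 0.26 and RRP4, an RNA-binding cap subunit, at -0.29 ± 0.14, with adjusted p-values of 0.139 and 0.12. The differences of RRP42 (-0.08) and RRP45 (-0.07) were smaller. RRP40, another cap subunit, had 849, 1031, 913, 676 and 838 with spermidine and 844, 601, 628, 1081 and 901 in controls, in overlapping ranges (log2 0.09 ± 0.18, limma adjusted p = 0.724).

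**Figure D2:**
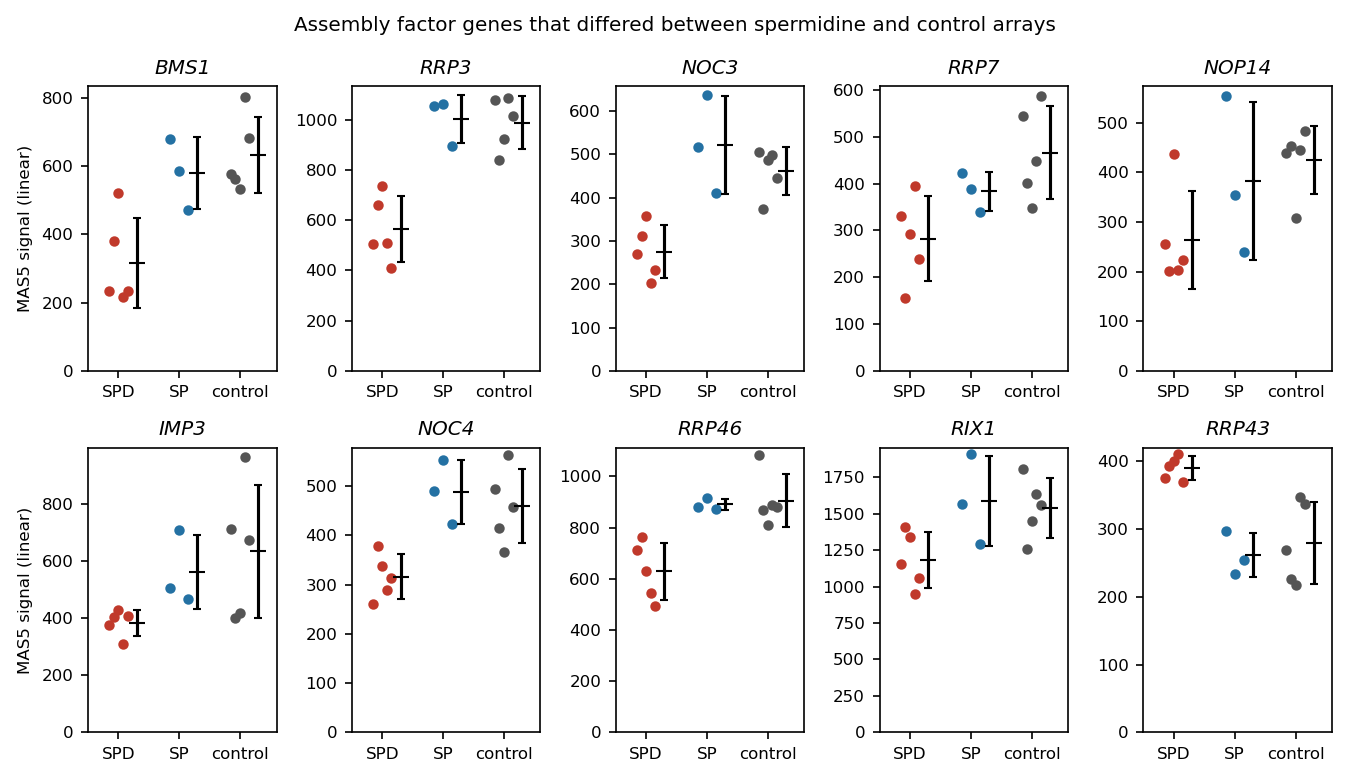
Deposited signal (linear scale) of the 10 assembly factor genes that passed the threshold between spermidine (SPD) and control arrays, with spermine (SP) arrays shown beside them. Each point is an array and bars are the mean with SD. RRP43 is the gene with all 5 spermidine values above the controls, and BMS1, RRP3, NOC3 and RRP46 have all 5 below.

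Large subunit factors gave 2 falls among 21 genes (9.52%, against 14.7% of all genes) and 0 rises, with a median log2 of -0.31. NOC3 (YLR002C), which forms a complex with NOC2 in the large subunit precursor, had 271, 312, 357, 204 and 234 with spermidine and 506, 373, 486, 498 and 445 in controls. The groups did not overlap, and the gene fell 1.71-fold (log2 -0.78 ± 0.19, limma adjusted p = 0.00671), while its partner NOC2 stood at -0.08 ± 0.25 and was not called. RIX1 (YHR197W), of a complex that processes the spacer between the 5.8S and 25S sequences, had 1157, 1408, 1339.9, 947 and 1058 on spermidine arrays and 1807, 1258, 1447, 1635 and 1559 on control arrays. Control 2 lay within the spermidine range (log2 -0.42 ± 0.15, limma adjusted p = 0.044). It was not called at -0.45 to -0.34 with spermidine 1, 4 or 5 or spermine 1 or control 1, 3, 4 or 5 left out, nor at -0.39 without quantile normalization and -0.41 with median centring.

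NSA2, whose product acts late in processing of the large subunit precursor RNA, had 1477, 1855, 1886, 1333 and 1429.8 with spermidine and 1769, 1463, 1386, 1836 and 1739 in controls, in overlapping ranges (log2 -0.08 ± 0.13, limma adjusted p = 0.669). RLP7 and RLP24 encode proteins that resemble ribosomal proteins L7 and L24 and take part in building the large subunit. Their differences were 0.00 ± 0.17 and -0.07 ± 0.18, and neither was called. RRP17, a 5′ to 3′ exonuclease, had a single spermidine array far from the rest, 50.8 on spermidine 5 against 126 to 193 on the other 4 and 101 to 182 on the controls. RRP1 had the highest value of the group at 0.28 and did not pass. Of the pair of genes for factors of both subunits, RRP5 stood at -0.74 ± 0.29 (limma adjusted p = 0.0616) and RRP14 at -0.35 ± 0.20 (adjusted p = 0.197). RRP14 read 862, 1531, 1645, 1015 and 984 with spermidine and 1508, 1106, 1537, 1551 and 1586 in controls, with spermidine 3 the highest and spermidine 1, 4 and 5 below all controls. RRP5 read 387 on spermidine 4, with 769 to 1311 on the other spermidine arrays and 1048 to 1494 on the controls.

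In normalised values, 3 members had every spermidine array below every control (RRP3, NOC3 and RRP46), where 9.39% of all genes tested did, and 1 had every spermidine array above (RRP43), where 14.1% did. Of the 10 genes called, BMS1, RRP3, RRP7, NOC3 and RRP46 kept the call in all 26 alternative settings, each array left out in turn included. BMS1 ranged from -1.31 to -0.93 over these settings, RRP3 from -0.97 to -0.75, NOC3 from -0.90 to -0.64, RRP7 from -0.95 to -0.60 and RRP46 from -0.64 to -0.48.

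The arrays of a group differed widely among themselves. The mean deviation of the 64 genes from their 13-array means, in log2 units, was -0.31, 0.08, 0.20, -0.57 and -0.31 on spermidine 1 to 5, 0.26, 0.26 and -0.05 on spermine 1 to 3, and 0.15, -0.13, -0.16, 0.37 and 0.23 on control 1 to 5. Spermidine 1, 4 and 5 lay below every control, whereas spermidine 2 and 3 lay inside the range of the controls. Spermidine 4 was the lowest of 13 arrays for 31 of 64 members (48.4%, against 12.3% of all genes tested), and control 4 was the highest for 21 members (32.8%, against 7.31% of all genes). All 64 members were above their own mean on control 4. The within-group SD of a member had a median of 0.37 log2 units with spermidine, against 0.26 for all genes. In controls it was 0.28, against 0.27 for all genes.

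**Figure D3:**
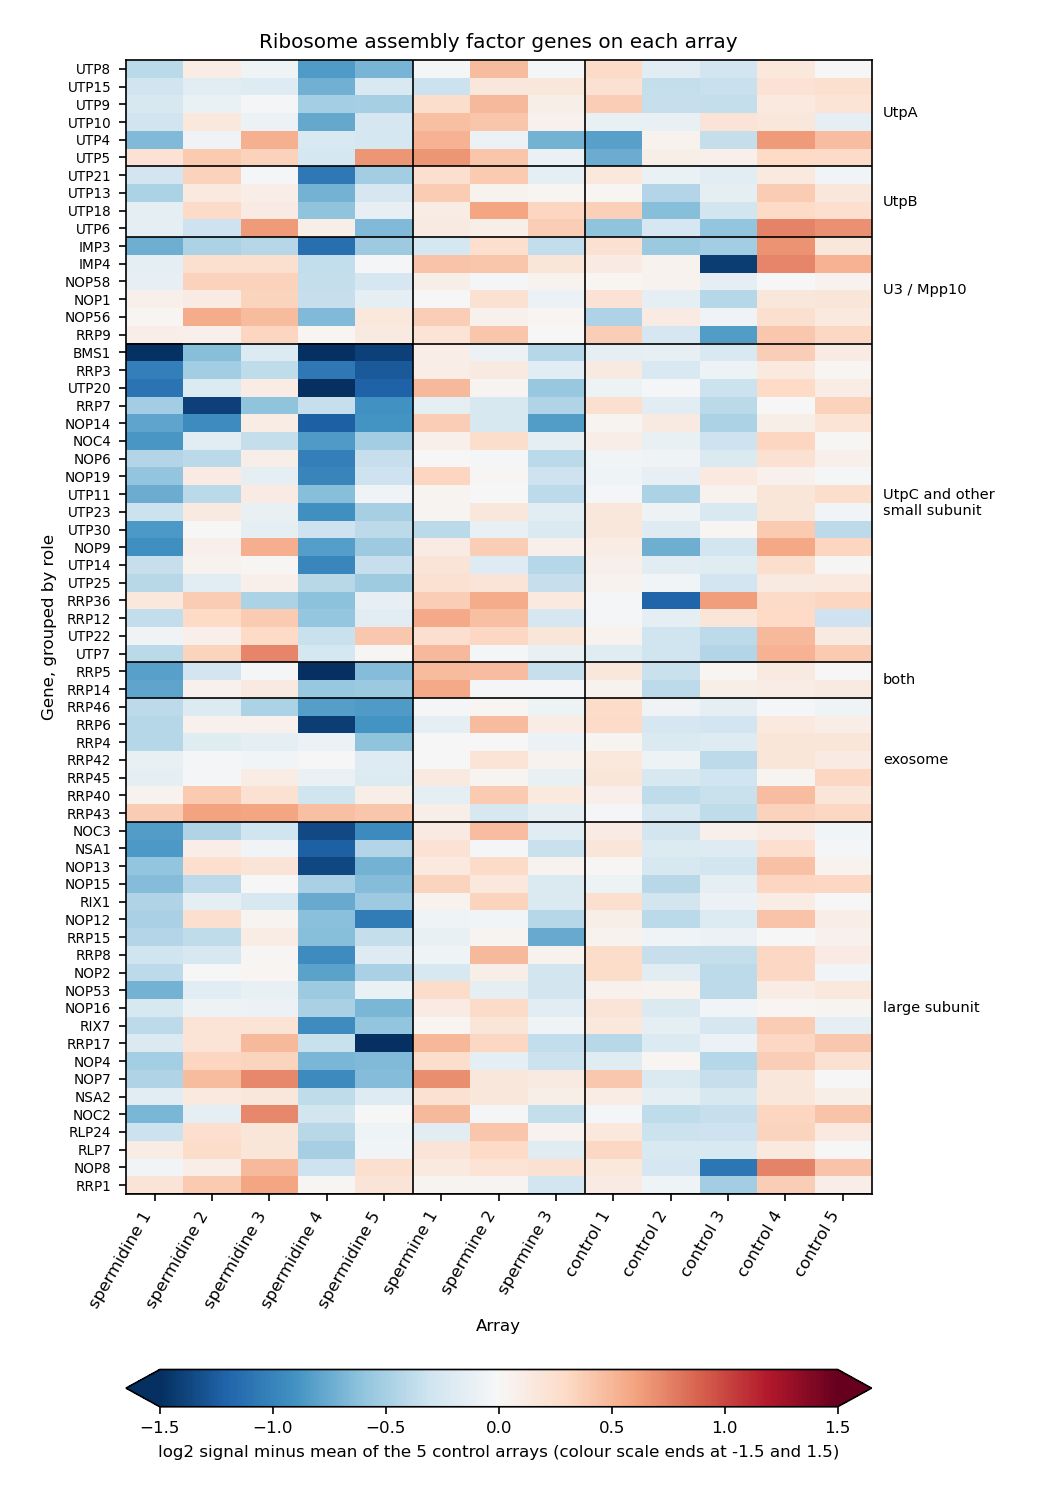
Signal of each assembly factor gene on each array as log2 difference from the mean of the 5 control arrays, with genes in rows by role and arrays in columns. Spermidine 1, 4 and 5 are blue for most genes, spermidine 2 and 3 are mixed, and RRP43 is red on all 5 spermidine arrays.

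The stress list stood at 1.78 and 1.76 on controls 2 and 3 while the assembly factor genes stood at -0.13 and -0.16 there. On spermine 1 the stress list was at 1.27 and the assembly factor genes at 0.26. On the spermidine arrays the stress list lay between -1.10 and -0.59, with its 2 lowest values on spermidine 2 and 3, where the assembly factor genes were highest in that group. What part this has in the group differences was not tested, beyond the counts without controls 2 and 3 given above.

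**Figure D4:**
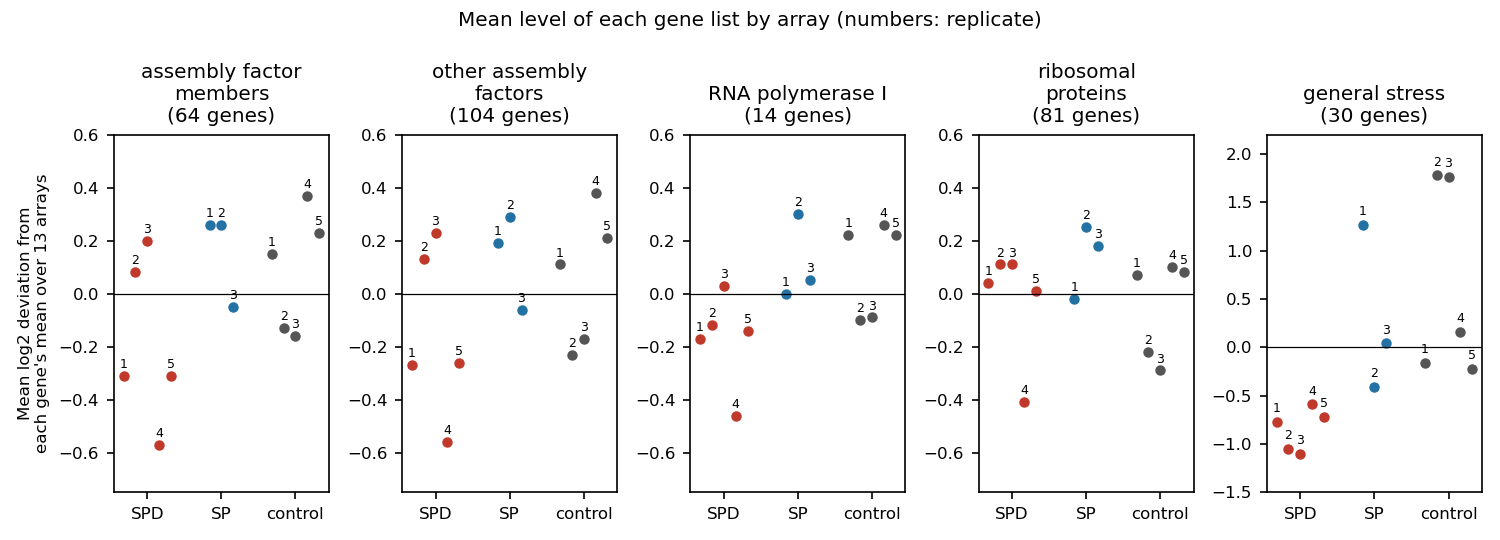
Mean log2 deviation of 5 gene lists from their 13-array means on each array (points, numbered by replicate), with spermidine (SPD), spermine (SP) and control arrays from left to right. The stress panel has a wider axis. Assembly factor genes of both lists are lowest on spermidine 4 and highest on control 4, and stress genes are highest on controls 2 and 3.

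Other genes of the pathway were taken from a list of 106 assembly factors whose symbols do not match the rule, of which 104 were measured and tested. In this list 20 genes fell with spermidine (19.2%, against 14.7% of all genes) and 0 rose (17.9% of all genes), and the median log2 was -0.19. RSA1, a factor of large subunit and box C/D particle assembly, had 60.9, 42.5, 75.9, 60.9 and 47.5 with spermidine and 90, 111, 119.5, 165 and 115 in controls (log2 -1.07 ± 0.19, limma adjusted p = 0.000746). All 5 spermidine values were below the controls. ECM16 (the helicase Dhr1) stood at -0.99 ± 0.30, KRE33, an RNA acetyltransferase of 18S rRNA, at -0.91 ± 0.33 and FAL1, a helicase related to eIF4A, at -0.81 ± 0.19, all called lower. Of 14 genes for RNA polymerase I and its factors 4 fell (28.6%) and 0 rose (median -0.27). Of 81 cytosolic ribosomal protein genes 5 fell (6.17%) and 1 rose (1.23%, median 0.03), and of 15 regulators 0 fell and 1 rose (6.67%). In the general stress list 14 of 30 genes fell (46.7%) and 0 rose, with a median of -1.31. These shares stand against 14.7% lower and 17.9% higher among all genes. The regulator that rose was STB3, which encodes a repressor that binds a motif of ribosome biogenesis promoters, and it was chosen for mention after its values were seen. Its signals were 181, 202, 214, 239.5 and 221 with spermidine and 67.4, 135, 128, 71.6 and 87.4 in controls, without overlap (log2 1.14 ± 0.21, limma adjusted p = 0.000977). The 4 polymerase I genes, also chosen after their values were seen, were RPA135 (-0.89), RPA190 (-0.73), RRN7 (-0.51) and RPA14 (-0.51).

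Some assembly factor genes are neighbours in the genome. In the order of protein-coding genes in the reference gene table, 9 members lie beside another assembly factor gene, in 7 pairs. NOC3 and CMS1 both fell with spermidine, by log2 -0.78 and -0.75. Next to RIX1 (-0.42, called) lies UTP9 (-0.28, not called), and next to RRP3 (-0.85, called) lies SSF1 (-0.30, not called). RRP15 (-0.34, not called) lies next to NOC4 (-0.55, called), with a tRNA gene between them. LCP5 was called at -0.47 and its neighbour NSA2 was not, at -0.08. Neither gene of the pairs PWP1 and NOP56 or RSA3 and UTP13 was called.

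NOP58, UTP20 and UTP22 had several probe sets, and the brightest stood for each. The 10 probe sets of UTP20 had spermidine minus control values from -0.80 to -0.09, and the 8 that passed the filter on dim probe sets -0.80 to -0.19. For UTP22, the brightest probe set gave 0.08 and the other 5 gave -0.67 to -0.02, so the sign of this gene depends on the probe set. The 4 probe sets of NOP58 gave -0.09 to 0.09. These values were not tested.

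Spermine against the same controls gave 0 calls among the assembly factor genes in either direction. Of all genes tested, 0.0196% were called higher and 0% lower. These are the controls already used for spermidine, so the comparisons share them. At an unadjusted p under 0.05 limma also gave 0 of 64 members, while 8.49% of all genes passed that limit. In normalised values 0 members had every spermine array below every control (2.55% of all genes) and 0 had every one above (3.86% of all genes). The members had 44 log2 differences above 0 and 20 below (31.2% below, against 46.2% of all genes). Their median log2 was 0.08, where the median of all genes was 0.02. With controls 2 and 3 left out the median was -0.09, and with spermine 1 left out as well -0.12, again with 0 calls. In these settings 0.255% and 0.0196% of all genes were called higher and 0% lower. Values ran from -0.28 for RRP7 to 0.36 for RRP36, a small subunit factor. The 95% intervals, not adjusted for the number of genes, reached between 0.32 and 0.81 log2 units to either side (median 0.48). A call after adjustment needed a larger difference, so differences of this size could be missed with 3 spermine arrays.

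The genes that changed most with spermidine show this. BMS1 had 679.7, 585 and 470.3 on the spermine arrays and 575, 563, 533, 803 and 680.4 on the control arrays, in overlapping ranges (log2 -0.14 ± 0.30, 95% interval -0.77 to 0.49). RRP3 had 1054, 1064 and 894 with spermine, all within the range of the controls (log2 0.02 ± 0.20, interval -0.40 to 0.44). RRP46 had 881, 916 and 873 with spermine, also within the controls (log2 -0.03 ± 0.17, interval -0.38 to 0.33). The differences of NOC3, 0.14 ± 0.22, and RRP7, -0.28 ± 0.23, had intervals of -0.34 to 0.62 and -0.77 to 0.21. RRP43 had 298, 234 and 254 with spermine and 269, 227, 218, 348 and 337 in controls (log2 -0.10 ± 0.18, interval -0.48 to 0.28). For IMP3, NOP14, NOC4 and RIX1 the values were -0.13, -0.23, 0.07 and 0.06. The brightest member of each role group gave 0.31 for UTP10, 0.34 for UTP18, 0.04 for NOP58, 0.26 for RRP12, 0.17 for RRP14, 0.14 for RRP40 and 0.16 for NSA2.

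Spermine was then set directly against spermidine, which differs from it by lacking an aminopropyl group. Doses and times are not given for either, so the comparison is between these treatments as run. Assembly factor genes were mostly higher with spermine: 62 of 64 had values above 0, where 2588 of all 5102 genes tested did. The median log2 was 0.35, where the median of all genes was 0.01. By limma 6 rose, where 9.43% of all genes did, and 1 fell, where 11.2% did. The 6 are 9.38% of the members, close to the share of all genes. At an unadjusted p under 0.05 there were 15 higher and 1 lower (25% of members, against 34.5% of all genes). In normalised values 8 members had every spermine array above every spermidine array (12.8% of all genes) and 1 had every one below (14.8% of all genes).

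NOC3 had 517, 636 and 410.3 with spermine and 271, 312, 357, 204 and 234 with spermidine, without overlap (log2 0.92 ± 0.22, limma adjusted p = 0.0094). For RRP3 the signals were 1054, 1064 and 894 with spermine against 506, 661, 737, 509.5 and 411 with spermidine, again without overlap (log2 0.87 ± 0.20, limma adjusted p = 0.00576). BMS1 had 679.7, 585 and 470.3 with spermine and 234, 379, 520.3, 215 and 233 with spermidine, where spermine 3 lay below spermidine 3 (log2 0.95 ± 0.30, limma adjusted p = 0.0346). These 3 genes, a large subunit factor and a pair of small subunit factors, gave the largest rises among the members called. NOC4 (0.62 ± 0.19, adjusted p = 0.0337) and RRP46 (0.53 ± 0.17, adjusted p = 0.0373) were higher with spermine without overlap.

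UTP10 of the UtpA complex was called here and not against control. It had 2281, 2192 and 1690.2 with spermine and 1368, 1902, 1627, 1033 and 1410.4 with spermidine, and spermine 3 lay within the spermidine range (log2 0.56 ± 0.19, limma adjusted p = 0.0459). RRP43 was lower with spermine, at 298, 234 and 254 against 375, 393, 401, 411 and 369 with spermidine, without overlap (log2 -0.59 ± 0.18, limma adjusted p = 0.0319). RRP5 (0.94 ± 0.33, adjusted p = 0.0589) and UTP9 (0.55 ± 0.20, adjusted p = 0.0618) missed the threshold. At the other end NOP1, NOP56, NOP58 and RRP9 of the U3 particle stood between 0.04 and 0.07, with an interval of -0.27 to 0.36 for NOP58.

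Calls of this comparison depended on single arrays, and some on the processing. The number of members that rose was 2 without spermine 1 (6.96% of all genes rose) and 1 without spermine 2 (5.84%). It was 3 without spermidine 1 (7.94%), 2 without spermidine 4 (7.98%) and 2 without spermidine 5 (7.68%). With all arrays 6 members rose, where 9.43% of all genes did. The number that fell was 0 without spermine 2, spermine 3, spermidine 2 or spermidine 3, where 8.21% to 10.4% of all genes fell. NOC3, the factor of the large subunit precursor, lost its call at 0.76 with spermine 2 left out. BMS1 lost it at 0.79 to 0.93 with spermidine 1, 4 or 5 or spermine 1 or 2 left out. The NOC4 call was lost at 0.52 to 0.63 with spermidine 1, 4 or 5 or spermine 1 or 2 left out. The exosome genes lost theirs at 0.45 to 0.55 with spermidine 4 or 5 or spermine 1, 2 or 3 left out for RRP46 and at -0.56 to -0.52 with spermidine 2 or 3 or spermine 2 or 3 left out for RRP43. UTP10 was not called at 0.43 to 0.56 with spermidine 1, 4 or 5 or spermine 1 or 2 or control 1, 2, 4 or 5 left out. Nor was it called at 0.50 without quantile normalization or with cyclic loess, or at 0.51 with median centring. The same held at 0.56 without the trend of variance on intensity and in a 2-group fit. RRP46 also lost its call with median centring and in a 2-group fit, and BMS1 in a 2-group fit. RRP3 kept its call with each array left out. With controls 2 and 3 and spermine 1 left out together, 2 members rose (NOC3 and RRP3) and RRP43 fell. In that setting 9.13% of all genes rose and 10.7% fell.

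**Figure D5:**
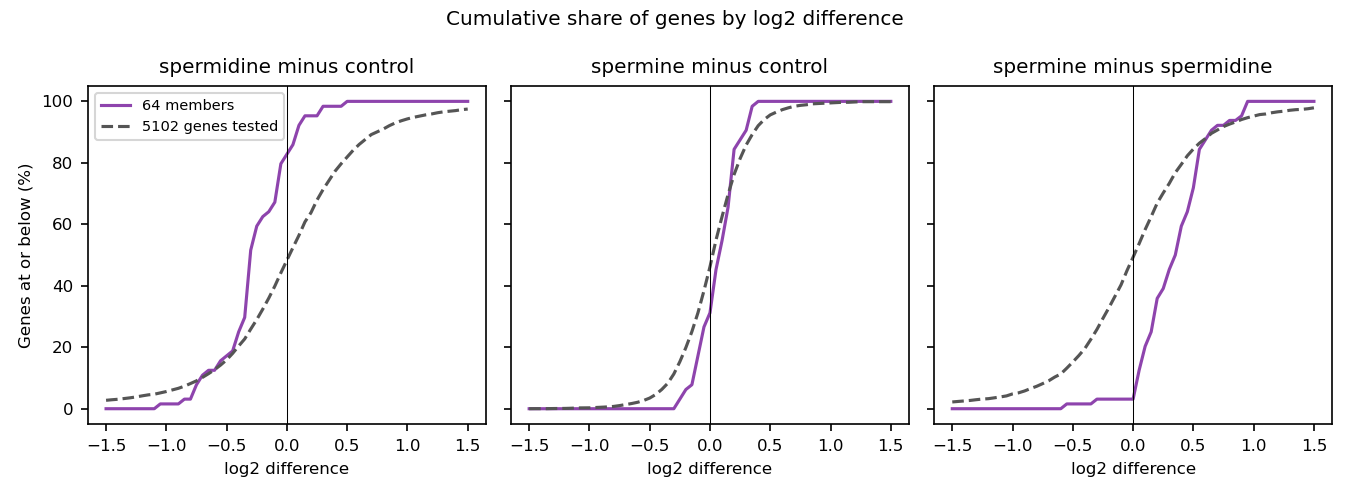
Share of genes (percent, vertical axis) with a log2 difference at or below the value on the horizontal axis, for the 64 assembly factor genes (solid) and all 5102 genes tested (dashed), in each comparison. The members' curve lies left of that of all genes around 0 for spermidine minus control and right of it for spermine minus spermidine. For spermine minus control it lies right of that of all genes at 0 (31.2% of members and 46.2% of all genes at or below 0) and left of it from 0.20 upward.

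Among the other 104 assembly factors, 9 were higher with spermine than with spermidine (8.65%, against 9.43% of all genes) and 0 lower (11.2% of all genes), with a median of 0.30. RSA1 had 134, 108 and 88.4 with spermine and 60.9, 42.5, 75.9, 60.9 and 47.5 with spermidine (log2 0.92 ± 0.22, limma adjusted p = 0.00931). The helicase gene ROK1 (0.90), CMS1 (0.78) and URB1 (0.73), a factor of the large subunit precursor, followed. STB3 was lower with spermine, at 143, 71.7 and 77.8 against 181, 202, 214, 239.5 and 221 with spermidine (log2 -1.19 ± 0.25, limma adjusted p = 0.00335).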

How the data were processed

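The deposited values are linear signal intensities, summarised by the authors with MAS5 per the submitters' processing notes in the labels. For MAS5 no version is stated. With a 2% trim the array means lay between 500.4 and 500.5, so arrays had been scaled before deposit. Sample titles gave the group and replicate number of each array. Members and lists were chosen with earlier results of these data known.

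Of 9335 probe sets, 6504 name 1 gene in the platform annotation. Gene identifiers of all 6504 were found in the reference gene table. Log2 signals were quantile normalized because array medians differed by 1.29-fold, without a pseudocount. The dimmest 25% of probe sets (signal under 37.8) were left out and the brightest stood for its gene, leaving 5102 genes. Group means over all 13 arrays were fitted with limma 3.58.1 under R 4.3.3, letting the variance follow intensity, a procedure tested on simulated data. Adjusted p-values are Benjamini-Hochberg over 5102 genes, and ± after a log2 value is the SE. Signals in the text are the deposited ones. Genes with full values are the members called in a comparison and the member with the brightest probe set in each of 7 role groups, and up to 4 called genes of the list of other factors. Array values of UTP20 (the member just outside the threshold), RRP5, RRP17 and STB3 were added after they were seen. The number of arrays limits the precision. The planned search for promoter motifs was not run. Plots were made in Python 3.11.15 (matplotlib 3.10.9).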

Additional observations from a re-analysis of the deposited data

Results flagged for a closer look

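In 46 groups of 5 arrays checked for an array far from the others of its group, 5 stood out, where chance gives about 1 in 20. In log2 normalised signal, NOP14 was 8.25 on control 3 and 8.76 to 8.92 on the other controls, and RRP46 was 10.10 on control 1 and 9.69 to 9.80 on the others. NOP58 was 13.13 on control 3 and 13.27 to 13.31 elsewhere in controls. RRP14 was 10.11 on control 2, with 10.55 to 10.64 on the other controls. The mean deviation of the cytosolic ribosomal protein genes was -0.41 on spermidine 4 and 0.01 to 0.11 on the other spermidine arrays.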

How the results depend on the processing

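Each comparison was refitted in 26 settings: other normalizations, a pseudocount of 16, other filters on dim probe sets, no trend, array weights, 2-group fits, a replicate block, means of probe sets, controls 2 and 3 (and spermine 1) left out, and each array left out. With single arrays left out, between 5 and 14 members fell and 0 to 1 rose with spermidine (median -0.38 to -0.20). Of all genes, 12.6% to 14.7% fell and 15.9% to 17.9% rose there. With spermine 0 members fell and 0 rose (median -0.01 to 0.18), where at most 0.0196% of all genes fell and 0.0784% rose. For spermine against spermidine 0 to 1 fell and 1 to 9 rose (median 0.25 to 0.44). There 8.21% to 11.5% of all genes fell and 5.84% to 9.62% rose. With array weights 22 members fell and 0 rose with spermidine, where 17.9% of all genes fell and 20.6% rose. Controls 2 and 3 left out gave 0 rises with spermidine, with or without spermine 1, where 15.7% and 16.5% of all genes rose. Without all 3 arrays 2 members rose for spermine against spermidine, where 9.13% of all genes did. The cause of these changes was not tested. Same-numbered arrays did not deviate together (correlations of -0.57 to 0.20), so the numbers were not taken as pairs. With the replicate number as a replicate block, 5 members fell and 0 rose with spermidine, where 11.8% of all genes fell and 15.4% rose. For spermine against spermidine 0 fell and 0 rose under the block, where 7.02% of all genes fell and 5.17% rose. Single-gene values in alternative settings were followed for the genes called in a comparison and the brightest member of each role group. Of these values, 869 kept their side of the threshold and 92 lost a call. A call was gained by 1 (RRP14 with array weights, log2 -0.50), and 0 changed sign while called. Members outside this set were not in these counts, and some gained calls, such as RRP5 and UTP20 with array weights for spermidine minus control. The 5 calls with spermidine that held in every setting are BMS1, RRP3, RRP7, NOC3 and RRP46. For spermine against spermidine 0 of 7 held in every setting, RRP3 being lost only under the block (log2 0.80, adjusted p = 0.0559). Each member's signal was above background on every array, and 3 spermine arrays give wide intervals. The planned description of promoter motifs was not run, since no promoter sequences were used here.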

Other observations

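The arrays also carry 10 probe sets for mature 18S and 25S ribosomal RNA, which are no part of the comparisons. On control 2, 7 of the 10 had their lowest signal of all 13 arrays. The 25S probe set c read 79.5 on control 2, against 1452 to 8986 on the other 12 arrays.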
